A study of Mus musculus with 23 samples.

Results

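ERF knockout and ERF wild type mouse embryonic stem cells were examined after 48 h in FA, a serum-free medium with FGF2 (12 ng/ml) and Activin A (20 ng/ml) in which naive stem cells turn into epiblast-like cells. The comparison rests on 5 of the 23 libraries of the series, chosen by their labels: 3 labelled ERF knockout and 2 labelled ERF wild type, all with RAS present. Both groups are Raslox/lox cells, which carry H-Ras-/- and N-Ras-/-, a floxed copy of the remaining RAS gene and Ubiq-CreERT2, a Cre recombinase that tamoxifen switches on. The controls are thus labelled H-Ras-/- and N-Ras-/- as well, and the only label that differs between the groups is ERF. Neither group had received 4-hydroxytamoxifen (OHT), so the floxed RAS gene was kept. The labels do not say how ERF was disrupted, whether the knockout line is 1 clone, or whether replicates are separate cultures. The p-values measure the spread between replicate libraries, estimated from all 23 libraries of the series and not from these 5 alone. For comparison, 6 libraries with RAS present had stayed in 2iL (inhibitors of MEK and GSK3 with LIF), and 6 libraries in FA were labelled RAS deleted after 6 days of OHT, where the drug and the deletion cannot be told apart.

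ERF is a repressor of the ETS family, whose members read a GGAA core in DNA. ERK, the last kinase of the RAS pathway, phosphorylates ERF and drives it out of the nucleus, so ERF is known to hold ERK target genes down when the pathway is quiet and to lose that hold when FGF signals. During the move from naive to formative pluripotency, cells shut naive factors such as Klf4 and Esrrb and turn on Fgf5, Otx2, Pou3f1 and the de novo DNA methyltransferases, while germline genes and imprinted genes are held by DNA methylation and repressor complexes.

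The 5 libraries held 22 to 26.2 M estimated counts each. Levels are given in CPM, counts scaled to a common library size with TMM factors, which are not per length. The labelled state could be read from its markers: Fgf5, a ligand of the early epiblast, had a mean of 35.8 CPM (SD 7.32, n = 2) in the ERF wild type cells in FA and 0.047 (SD 0.0123, n = 3) in 2iL, and Klf4 had 3.46 (SD 0.141) against 238 (SD 17). Summed over 7 pluripotency markers, the ERF wild type libraries held 1805 and 1871 CPM and the ERF knockout libraries 1520 to 1616, and 4 epiblast-like markers summed to 548 and 619 against 343 to 401 CPM. In both sums the groups were apart, though no single marker was called. Among markers of other cells, 8 fibroblast markers summed to 8.37 to 11.6 CPM over the 5 libraries and 7 of extraembryonic endoderm to 49.4 to 88.3 CPM, with the groups overlapping. The groups were apart in the sums of 8 blood and endothelium markers (50.04 and 53.5 against 39.7 to 47.1 CPM, none called). They were also apart for 5 neural markers (61.1 and 58.5 against 44.3 to 56.1, Tubb3 called) and 5 trophoblast markers (10.7 and 12.2 against 5.30 to 6.34, Gata3 and Hand1 called). Ranges apart are common between these groups, as 38.9% of all tested genes had them. For scale, 5 naive markers summed to 74.1 to 108 CPM. The 2 ERF wild type libraries stood further apart than any ERF knockout pair (chi-square per degree of freedom 21.8 against 7.64 to 11.5 over genes with at least 20 counts). One measured difference between them was chromosome 8, whose genes had a median of 0.32 log2 above the mean of all libraries in ERF wild type replicate 1 and 0.005 in replicate 2. All 4 cultures labelled ERF wild type replicate 1 shared it, between 0.23 and 0.33, and the other 19 libraries lay between -0.10 and 0.005. Over 582 chromosome 8 genes above 5 CPM, the median change from ERF wild type to ERF knockout was -0.23, and the other 19 chromosomes measured lay between -0.05 and 0.01.

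**Figure D1:**
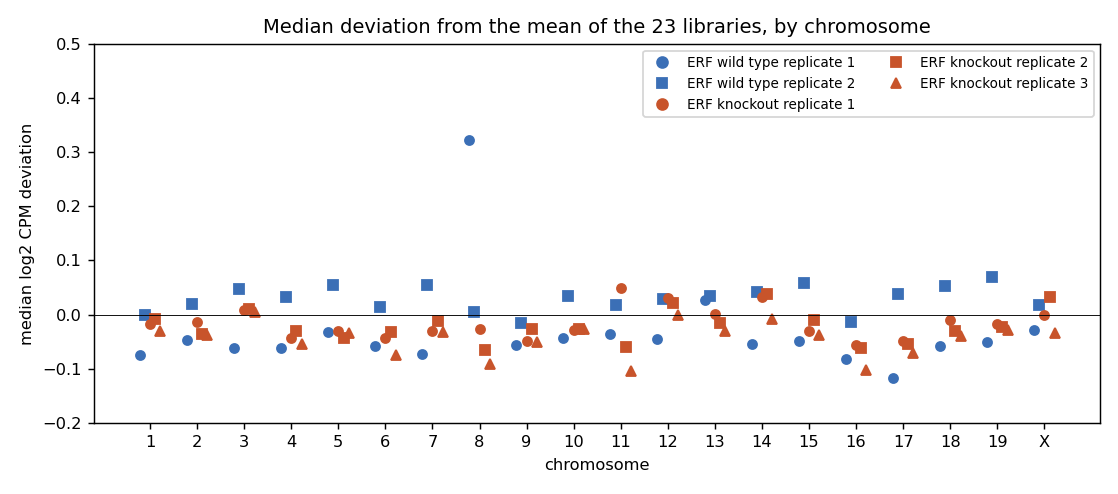
Median deviation of log2 CPM from the mean of the 23 libraries for genes above 5 CPM on each chromosome, 1 point per library, blue for ERF wild type and red for ERF knockout. ERF wild type replicate 1 lies at 0.32 on chromosome 8, where the other 4 libraries lie between -0.09 and 0.005.

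The targeted gene itself did not fall. Erf had 69.8 and 56.5 CPM in the 2 ERF wild type libraries and 50.7, 64.8 and 56.9 CPM in the 3 ERF knockout libraries. These ranges overlapped, and the change was -0.14 on the log2 scale (SE 0.15; edgeR quasi-likelihood adjusted p = 0.614), and 0.053 without ERF wild type replicate 1. A count per gene does not show an edited or truncated transcript, so this level checks the knockout label in neither direction. Hras had 25.2 and 25.6 CPM in ERF wild type and 17.7 to 21.6 CPM in ERF knockout libraries, a change of -0.38 (adjusted p = 0.0243), and Nras had 26.3 and 26.4 against 11.4 to 18 CPM (-0.76, adjusted p = 0.494). Both are labelled deleted in all 5 libraries and still gave counts.

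Across the genome, ERF knockout cells in FA differed from ERF wild type cells by 480 of 20372 genes tested (2.36%), of which 321 were higher (1.58%) and 159 lower (0.78%). To be called, a gene had to change 2-fold or more with an adjusted p under 0.05 (edgeR quasi-likelihood test, Benjamini-Hochberg adjustment over all genes). At any size of change, 1992 genes (9.78%) had an adjusted p under 0.05, 891 higher and 1101 lower, and the median change over all genes was -0.004. The first principal component of the 5 libraries took 47.5% of the variance and parted ERF knockout from ERF wild type, and the second (20.5%) parted the 2 ERF wild type libraries. The call count depends on these 2 libraries: without replicate 1 it was 124 (61 higher, 63 lower) and without replicate 2 it was 749. Among the 15 rises and 15 falls named for size, which had separate ranges and at least 5 CPM in the higher group and leave out predicted genes, clones and pseudogenes, the largest rises were Ankrd1, Acta2, Tinagl1 and Tagln, and the largest falls H19, Xlr5a, Cphx1 and Xlr3a. With bulk RNA, a change in the share of cells that use a gene and a change in RNA per cell cannot be told apart.

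The steepest of the named falls was in an imprinted gene, one expressed from 1 parental copy. Of 18 listed imprinted genes tested, 0 were called higher and 4 lower (over all genes, 0.78% lower), with a median of -0.43 that was -0.26 without ERF wild type replicate 2. The list does not hold every imprinted gene. Outside it, Zim1 was called higher (1.03) and Kcnq1ot1 lower (-1.22), both singled out after their values were seen. H19, a maternally expressed non-coding RNA, had 126 and 98.2 CPM in ERF wild type libraries. In ERF knockout libraries H19 had 3.75, 7.64 and 3.39 CPM, a 22.7-fold lower mean (log2 change -4.51, SE 0.44, adjusted p = 2.19e-05). The groups were far apart, and separate ranges were a condition of naming H19 (over all genes tested, 38.9% had ranges that did not overlap). Replicate 2 was the highest of the knockout libraries. Igf2, the growth factor gene that shares enhancers with H19, had 11.1 and 13.3 against 8.27, 9.34 and 9.45 CPM and was not called (-0.43, adjusted p = 0.342). Peg3, a paternally expressed zinc finger gene, had 420 and 323 CPM in ERF wild type and 68.2, 73.9 and 99.0 CPM in ERF knockout libraries (-2.21, SE 0.30, adjusted p = 0.000399). Mest, a paternally expressed hydrolase gene, had 177 and 141 against 48.0, 45.3 and 48.9 CPM (-1.74, SE 0.17, adjusted p = 7.8e-06). H19, Peg3 and Mest were called in each of the 5 fits that left out 1 library. At the Dlk1-Dio3 cluster of imprinted RNAs, Mirg fell (83.5 and 61.3 against 32.7, 28.9 and 45.1 CPM; -1.03, adjusted p = 0.0216) and Rian had a smaller change (-0.64, adjusted p = 0.00867) that did not reach the 2-fold limit. The call for Mirg was lost without ERF wild type replicate 1 (-0.75, adjusted p = 0.278), without ERF knockout replicate 1 (-0.97, adjusted p = 0.0686) and without ERF knockout replicate 2 (-0.88, adjusted p = 0.1).

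The Xlr3, Xlr4 and Xlr5 genes, a family of near-identical X-linked copies related to synaptonemal complex proteins, were all called lower. This list was added after their values were seen. All 9 copies tested were called lower (over all genes, 0.78%), with a median of -2.34 and a range of -4.38 to -1.54. Without ERF wild type replicate 1 the median was -2.50. Reads are shared among the copies, so single copies are uncertain, and their sum is the firmer value. Summed over the 9, the ERF wild type libraries held 120 and 151 CPM and the ERF knockout libraries 35.7, 23.9 and 26.4 CPM, a 4.72-fold difference of means (136 ± 21.6, SD, n = 2, against 28.7 ± 6.23, n = 3). Among the copies, Xlr3a had 39.4 and 47.1 against 10.6, 5.78 and 7.33 CPM, and Xlr5a had 10.4 and 7.15 against 0.611, 0.434 and 0.518 CPM. No library of one group reached into the other for either copy, which the naming rule required (38.9% of all tested genes have ranges apart). The RefSeq promoter window of Xlr5a (250 bases before to 50 after the start, build GRCm38.p6) is shown because it holds the ETS core CCGGAA, searched on both strands and in capitals below, at 2 palindromic places:
Xlr5a (chrX:73117653-73117952, minus strand): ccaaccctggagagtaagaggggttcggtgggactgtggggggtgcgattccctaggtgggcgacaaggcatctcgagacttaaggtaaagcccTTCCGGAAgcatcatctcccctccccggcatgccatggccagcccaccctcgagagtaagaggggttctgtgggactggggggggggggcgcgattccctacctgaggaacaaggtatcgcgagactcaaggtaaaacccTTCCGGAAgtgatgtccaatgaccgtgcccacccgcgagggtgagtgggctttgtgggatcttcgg
CCGGAA was present in 27.5% of the 12852 tested genes with a window, in 14 of 190 called higher (7.37%) and in 19 of 92 called lower (20.7%). A match is only the presence of these letters. The window was chosen after the values were seen.

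**Figure D2:**
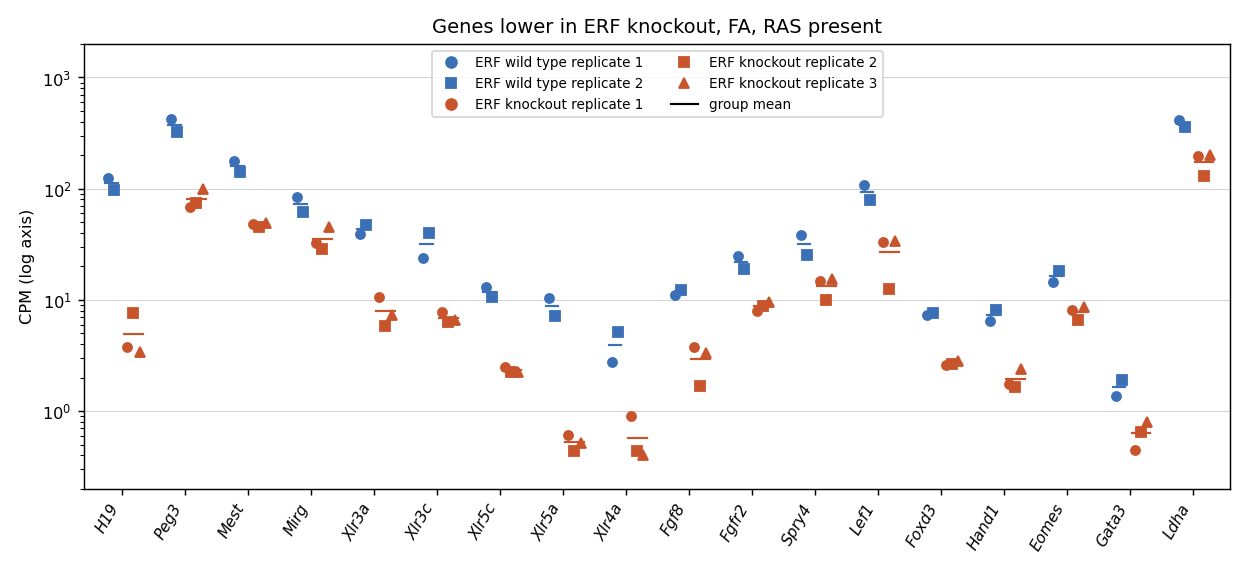
Level of 18 genes that were lower in ERF knockout cells, in CPM on a log axis, 1 point per library with blue for ERF wild type, red for ERF knockout and a bar at the group mean. No ERF knockout library reaches the ERF wild type range for any of them (38.9% of all tested genes have ranges apart), and H19 shows the widest gap, 98.2 to 126 against 3.39 to 7.64 CPM.

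The named rises began with Ankrd1 and with genes of the contractile actin system. Some rises outside the naming rule were steeper than most of the named ones. That of the predicted gene Gm14149 was 4.12 (0.756 and 0.0947 against 4.61, 6.95 and 12.7 CPM), less than those of Ankrd1 (8.01) and Acta2 (7.63). Under the level limit, Aqp1, a water channel gene, had 0 counts in both ERF wild type libraries and 1.06, 3.08 and 3.07 CPM in ERF knockout libraries (adjusted p = 0.000814). Gm14149 and Aqp1 were singled out after their values were seen. Ankrd1, a muscle ankyrin repeat gene and a common readout of the co-activator YAP, had 0 and 1 counts in the 2 ERF wild type libraries (0 and 0.0474 CPM) and 4.16, 5.82 and 10.2 CPM in the ERF knockout libraries. With 1 count in the control group, the ratio was 332 with an exact 95% counting interval of 59.3 to 13137. Acta2, smooth muscle actin, also had 1 count in the ERF wild type libraries and 1.83, 3.95 and 9.68 CPM in the ERF knockout libraries (ratio 255, exact 95% interval 45.5 to 10106). Intervals cover counting error only. ERF knockout replicate 3 had the highest level of both genes. Tagln, the actin-binding transgelin, had 0.792 and 0.994 against 5.79, 8.21 and 17.5 CPM (3.56, SE 0.85, adjusted p = 0.016), again highest in replicate 3. Acta1, skeletal actin, had 0.072 and 0.0947 against 1.18, 1.17 and 0.996 CPM (3.68, SE 0.55, adjusted p = 0.000282), although it lies on chromosome 8, whose other genes were raised in ERF wild type replicate 1. Cnn2, a calponin, had 4.86 and 10.1 against 21.9, 18.3 and 21.9 CPM (1.49, SE 0.38, adjusted p = 0.0216).

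In all, 4 of 20 tested actin genes and targets of the actin-sensing factor SRF were called higher (over all genes, 1.58%) and 0 lower, a list added after the values were seen, with a median of 0.46 (0.72 without ERF wild type replicate 2). The abundant cytoplasmic actin Actb changed by -0.002 and Srf itself by 0.26, neither called. Without ERF wild type replicate 1 the list had 1 call, Acta1 (3.51, adjusted p = 0.0175). Ankrd1 (7.02, adjusted p = 0.0563), Acta2 (6.64, adjusted p = 0.197), Tagln (3.43, adjusted p = 0.175) and Cnn2 (1.06, adjusted p = 0.262) were no longer called there. Acta2 and Tagln also lost the call without ERF wild type replicate 2 (adjusted p = 0.0652 and 0.0579), and Cnn2 without ERF knockout replicate 1 (adjusted p = 0.0509).

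Of 13 tested YAP and TEAD genes, 3 were called higher (over all genes, 1.58%) and 0 lower: Ankrd1, Axl and Ctgf. None of the 3 was called without ERF wild type replicate 1. The list's median was -0.004, the same as over all genes to that digit. Ctgf, a matricellular growth factor, had 45.4 and 74.1 against 113, 157 and 115 CPM (1.11, SE 0.24, adjusted p = 0.00881), and its call was lost without ERF wild type replicate 1 (0.82, adjusted p = 0.154) and without ERF knockout replicate 2 (0.95, adjusted p = 0.0389). Axl, a receptor kinase, had 1.48 and 1.33 against 3.59, 4.43 and 6.18 CPM (1.75, adjusted p = 0.0201), a call that was lost without either ERF wild type library (adjusted p = 0.158 and 0.0776) and without ERF knockout replicate 3 (adjusted p = 0.059). Cyr61, a sister of Ctgf that is named here after its values were seen, had 10.4 and 16.6 against 38.5, 40.9 and 52.1 CPM (1.71, SE 0.21, adjusted p = 8.5e-05) and was called in all 5 fits that left out 1 library. Yap1 (-0.14), Wwtr1 (-0.12) and Tead1 (-0.10), the factors themselves, were not called.

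The promoter windows of Ankrd1 and Acta1 are shown because they hold the letters read by TEAD factors and by SRF. Capitals mark GGAATG, read by TEAD factors, in Ankrd1 and the CArG box, read by SRF, in Acta1. GGAATG was searched on both strands. The Acta1 window also holds CATTCC, which is GGAATG on the other strand, left in lower case. Both windows were chosen after the values were seen:
Ankrd1 (chr19:36119795-36120094, minus strand): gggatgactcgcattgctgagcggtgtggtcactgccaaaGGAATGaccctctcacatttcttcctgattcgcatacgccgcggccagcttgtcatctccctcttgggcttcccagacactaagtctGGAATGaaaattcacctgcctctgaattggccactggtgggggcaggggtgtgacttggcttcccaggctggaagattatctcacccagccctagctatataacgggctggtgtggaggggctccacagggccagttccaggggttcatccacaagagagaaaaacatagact
Acta1 (chr8:123894726-123895025, minus strand): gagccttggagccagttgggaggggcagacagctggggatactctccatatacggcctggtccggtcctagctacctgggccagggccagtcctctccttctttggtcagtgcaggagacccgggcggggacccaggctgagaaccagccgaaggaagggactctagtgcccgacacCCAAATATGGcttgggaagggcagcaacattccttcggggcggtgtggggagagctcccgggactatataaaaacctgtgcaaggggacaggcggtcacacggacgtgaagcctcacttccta
GGAATG was present in 15% of tested genes with a window and in 14.2% of those called higher. The CArG box was present in 1.57% and 3.16%, the latter 6 of 190 genes.

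Timp2, an inhibitor of matrix metalloproteinases, had 1.12 and 1.23 CPM in ERF wild type and 5.34, 5.47 and 7.05 CPM in ERF knockout libraries (2.34, SE 0.34, adjusted p = 0.000221). Tinagl1, a secreted matrix protein, had 1.08 and 1.66 against 12.9, 16.3 and 27.7 CPM (3.82, SE 0.67, adjusted p = 0.00291). The groups were apart for each gene, which the naming rule required (38.9% of all tested genes have ranges apart). Timp2 was called in all 5 fits that left out 1 library, while Tinagl1 lost the call without ERF wild type replicate 1 (3.54, adjusted p = 0.0735). Of 19 tested matrix and integrin genes, 0 were called, with a median of 0.27 (0.18 without ERF wild type replicate 1; Itga2b was called higher without replicate 2). The direction was mostly upward, 15 of 19 above 0. In this list 4 were higher at an adjusted p under 0.05 (over all genes, 891 of 20372), below the 2-fold limit. Hspg2, which encodes the basement membrane proteoglycan perlecan, had 408 and 446 against 499, 507 and 591 CPM (0.32, adjusted p = 0.0756), and Fn1, fibronectin, had 455 and 494 against 613, 737 and 541 CPM (0.41, adjusted p = 0.0402). Emp2, a membrane protein, rose from 1.94 and 1.80 to 4.36, 6.34 and 9.09 CPM (1.81, adjusted p = 0.0175), a call lost without either ERF wild type library (adjusted p = 0.156 and 0.0702).

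Of 16 germline genes tested, 8 were called higher and 0 lower (over all genes, 1.58% higher), and all 8 calls were lost without ERF wild type replicate 1. The median was 1.11, 15 lay above 0, and Nanos3 had -0.90 (adjusted p = 0.273). Genes of the synaptonemal complex, the scaffold that joins chromosomes in meiosis, were among them. Sycp2 had 1.76 and 4.69 CPM in ERF wild type and 11.7, 10.0 and 9.64 CPM in ERF knockout libraries (1.72, SE 0.32, adjusted p = 0.00197). Sycp1 had 1.22 and 4.69 against 9.29, 8.56 and 7.81 CPM (1.56, SE 0.35, adjusted p = 0.00694). Sycp3 had 4.43 and 8.05 against 14, 17.6 and 14.4 CPM (1.31, SE 0.25, adjusted p = 0.00231). In all of these the groups were apart, as for 38.9% of all tested genes, and ERF wild type replicate 1 was the lowest library. Taf7l, a testis-specific TFIID subunit on the X chromosome, had 3.09 and 11.8 against 22.5, 20.3 and 22.4 CPM (1.56, adjusted p = 0.00628). Slc25a31, a germ cell ADP/ATP carrier, had 1.04 and 3.93 against 9.21, 6.95 and 6.18 CPM (1.61, adjusted p = 0.0125), and Asz1, a piRNA pathway gene, 0.396 and 1.23 against 2.36, 1.95 and 1.2 CPM (1.22, adjusted p = 0.0421). Asz1 was the exception to separate ranges, with replicate 2 of ERF wild type above replicate 3 of ERF knockout.

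The germline list's median was 0.60 without ERF wild type replicate 1, and the values were 1.19 for Sycp2 (adjusted p = 0.067), 0.89 for Sycp1 (adjusted p = 0.132), 0.96 for Sycp3 (adjusted p = 0.0851), 0.90 for Taf7l (adjusted p = 0.0462, under 2-fold), 0.95 for Slc25a31 (adjusted p = 0.211) and 0.60 for Asz1 (adjusted p = 0.503). Without ERF wild type replicate 2, 11 were called and the median was 1.70. Asz1 also lost its call without ERF knockout replicate 1 (adjusted p = 0.146) and replicate 2 (adjusted p = 0.108). Among germline genes of the X chromosome, a list added after the values were seen, 4 of 11 were called higher (over all genes, 1.58%), 4 lay below 0 and the median was 0.45. The list's sum went the other way, 147 and 219 CPM in ERF wild type against 133 to 141 in ERF knockout libraries, and most of it was Rhox5, a homeobox gene at 128 and 184 against 75.2, 78.3 and 81.6 CPM (-0.99, adjusted p = 0.0101, just under 2-fold). Leaving out ERF wild type replicate 1 gave 0 called higher and 1 lower, Rhox5 (adjusted p = 0.024). The 4 called were Usp26, a deubiquitinase gene (2.66 and 4.31 against 17.6, 17.7 and 8.81 CPM; 2.09, adjusted p = 0.00499), Taf7l, Nxf2 and Mageb4. Usp26 lost its call without ERF wild type replicate 1 (1.79, adjusted p = 0.117). Nxf2 (1.42, adjusted p = 0.0171) lost it without ERF wild type replicate 1 (adjusted p = 0.291) or ERF knockout replicates 1 (0.0502) or 2 (0.0504), and Mageb4 (1.34, adjusted p = 0.0391) in 4 of the 5 fits, with a lowest value of 1.13.

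In stem cells, germline genes are known to be held by DNA methylation and by a Polycomb complex, PRC1.6, whose MGA-MAX subunits read CACGTG and whose E2F6 subunit reads TCCCGC. The windows of 4 of the risen genes are shown with these letters in capitals, TCCCGC searched on both strands:
Sycp1 (chr3:102936051-102936350, minus strand): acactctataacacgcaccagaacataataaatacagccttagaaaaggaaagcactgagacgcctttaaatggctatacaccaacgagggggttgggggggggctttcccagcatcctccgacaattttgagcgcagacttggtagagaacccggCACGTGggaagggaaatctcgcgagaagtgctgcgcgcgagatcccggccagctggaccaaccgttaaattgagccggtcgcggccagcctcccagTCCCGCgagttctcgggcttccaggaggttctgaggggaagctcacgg
Sycp3 (chr10:88459337-88459636, plus strand): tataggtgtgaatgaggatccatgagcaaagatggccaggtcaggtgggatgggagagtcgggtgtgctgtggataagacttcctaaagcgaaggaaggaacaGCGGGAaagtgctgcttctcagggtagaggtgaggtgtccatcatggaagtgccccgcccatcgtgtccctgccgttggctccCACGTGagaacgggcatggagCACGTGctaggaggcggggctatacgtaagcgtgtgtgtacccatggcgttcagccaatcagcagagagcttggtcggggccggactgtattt
Slc25a31 (chr3:40708621-40708920, plus strand): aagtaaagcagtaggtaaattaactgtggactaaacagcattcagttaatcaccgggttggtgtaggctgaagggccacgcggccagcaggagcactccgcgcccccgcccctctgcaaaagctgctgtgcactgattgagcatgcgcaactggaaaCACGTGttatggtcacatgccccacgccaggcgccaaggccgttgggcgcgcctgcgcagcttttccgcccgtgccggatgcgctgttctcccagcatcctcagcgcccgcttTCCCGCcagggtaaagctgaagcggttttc
Taf7l (chrX:134476441-134476740, minus strand): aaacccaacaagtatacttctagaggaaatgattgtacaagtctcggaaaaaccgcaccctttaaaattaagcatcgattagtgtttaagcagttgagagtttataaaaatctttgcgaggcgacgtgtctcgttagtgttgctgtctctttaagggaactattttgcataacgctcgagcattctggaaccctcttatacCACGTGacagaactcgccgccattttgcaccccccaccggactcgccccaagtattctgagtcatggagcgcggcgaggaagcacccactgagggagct
CACGTG was present in 6 of the 8 called germline genes and in 4 of 7 germline genes with a window that were not called. It was present in 11.1% of tested genes with a window and in 11.6% of all those called higher. TCCCGC was present in 4 of the 8 and in 2 of the 7 not called. It was present in 36.8% of tested genes with a window and in 32.6% of all those called higher. These windows were chosen after the values were seen.

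Of 9 tested genes of the two-cell-like state, a rare stem cell state that resembles the embryo at its first cleavage, 3 were called higher (over all genes, 1.58%) and 0 lower, all 9 lay above 0 and the median was 1.85. Zfp352, a zinc finger gene of that state, had 0.504 and 0.189 CPM in ERF wild type and 3.71, 4.00 and 1.47 CPM in ERF knockout libraries (3.06, SE 0.58, adjusted p = 0.00237), and was called in all 5 fits that left out 1 library. Tcstv1 had 1.65 and 0.758 against 7.34, 10.4 and 3.79 CPM (2.53, SE 0.74, adjusted p = 0.0398). Tdpoz4 had 0.18 and 0.331 against 1.92, 1.22 and 0.996 CPM (2.44, adjusted p = 0.0137). The groups were apart for all 3, as for 38.9% of all tested genes, and ERF knockout replicate 3 was the lowest of its group. Duxf3, a copy of the homeobox gene Dux that sets off this state, had 3.20 and 3.93 against 13, 14.9 and 9.21 CPM (1.79, adjusted p = 0.0154). The other named rises included Pramef25 (2.61, adjusted p = 0.0399), Usp17ld (2.26, adjusted p = 0.0483) and AI481877 (1.80, adjusted p = 0.00197). Tcstv1, Pramef25, Usp17ld and Duxf3 belong to multicopy families, so reads may be split among copies. Tcstv1, Pramef25 and Usp17ld were each called in 1 of the 5 fits that left out 1 library, the fit without ERF knockout replicate 3. Tdpoz4 lost the call without ERF wild type replicate 1 (2.06, adjusted p = 0.193) or ERF knockout replicate 1 (2.13, adjusted p = 0.0543), and Duxf3 without ERF wild type replicate 1 (1.68, adjusted p = 0.178) or ERF knockout replicate 2 (1.65, adjusted p = 0.0615).

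**Figure D3:**
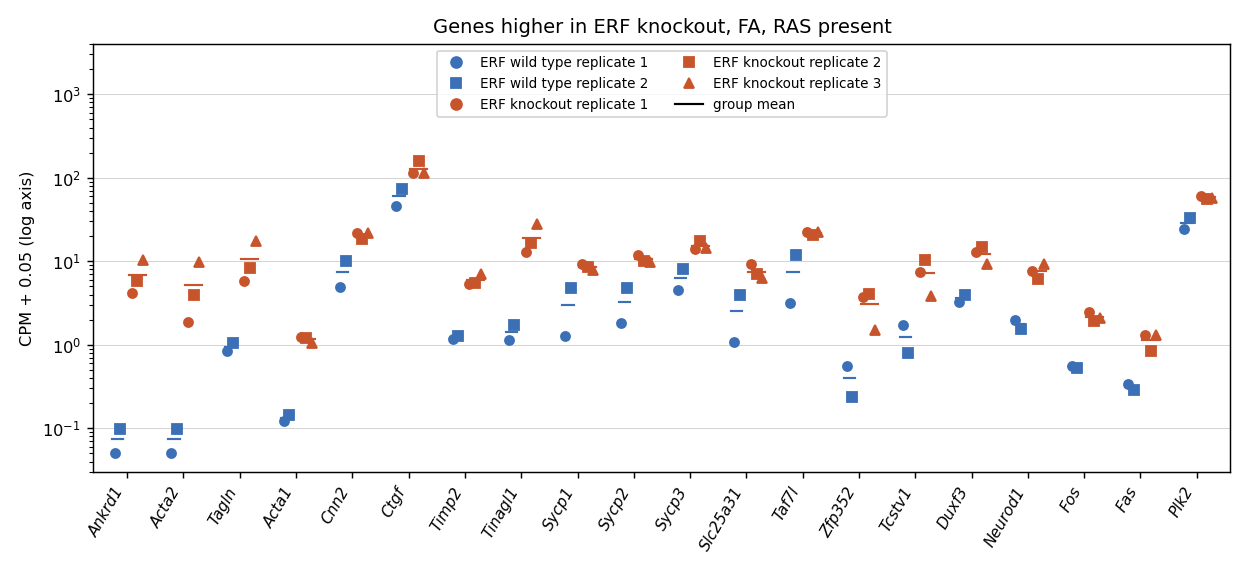
Level of 20 genes that were higher in ERF knockout cells, as CPM + 0.05 on a log axis, 1 point per library with blue for ERF wild type, red for ERF knockout and a bar at the group mean. The ERF wild type replicate 1 point is the lowest of the 5 for Sycp1, Sycp2, Sycp3, Slc25a31 and Taf7l, and ERF knockout replicate 3 is the highest for Ankrd1, Acta2, Tagln and Tinagl1.

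No gene of the ETS family was called, and most response genes of ERK signalling lay lower by less than 2-fold. Of 21 tested ETS family genes, 0 were called, with a median of -0.06. Etv5, an ERK-induced activator, had 265 and 320 against 218, 239 and 221 CPM (-0.37, adjusted p = 0.0471), and Gabpa, a ubiquitous family member, had 74.7 and 76.7 against 73.9, 72.6 and 71.6 CPM (-0.06, adjusted p = 0.647). Of 22 tested ERK response genes, 1 was called higher and 1 lower (over all genes, 1.58% and 0.78%). In this list 7 had an adjusted p under 0.05 (9.78% of all genes did), 17 lay below 0 and the median was -0.37. Summed over the list, the ERF wild type libraries held 1171 and 1140 CPM and the ERF knockout libraries 846 to 906. Without ERF wild type replicate 1 the median was -0.24, and Fos and Egr1, another immediate early gene, were called higher with 0 lower. Fos, an immediate early gene, had 0.504 and 0.474 CPM in ERF wild type and 2.40, 1.87 and 2.07 CPM in ERF knockout libraries (2.10, SE 0.30, adjusted p = 0.000202), and was called in all 5 fits that left out 1 library. Spry4, a feedback inhibitor of receptor kinase signalling, had 38.3 and 25.6 against 14.8, 9.99 and 15.4 CPM (-1.25, SE 0.21, adjusted p = 0.000749). The groups were apart for both genes, as for 38.9% of all tested genes, but Spry4 lost its call without ERF wild type replicate 1 (-0.90, adjusted p = 0.0735). A further 5 members of the list had smaller falls at an adjusted p under 0.05, among them the feedback gene Spry2 (-0.67, adjusted p = 0.00691) and the ETS activator Etv4 (-0.65, adjusted p = 0.0333). Dusp6, the ERK phosphatase, had 138 and 155 against 118, 99.9 and 111 CPM and was not called (-0.42, adjusted p = 0.224). Of 22 genes of the RAS to ERK pathway itself, 0 were called (Rras was called higher without ERF wild type replicate 2), and the kinase Braf had the value -0.39 (adjusted p = 0.00844). Fos has no CCGGAA in its window, and no window was at hand for Spry4, so no promoter of this group is printed.

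Of 12 tested FGF ligands and receptors, 0 were called higher and 2 lower (over all genes, 0.78% lower), with a median of -0.60, and without ERF wild type replicate 1 neither was called and the median was -0.30. Fgf8, a ligand of the gastrulating epiblast, had 11 and 12.2 CPM in ERF wild type and 3.75, 1.69 and 3.35 CPM in ERF knockout libraries (-1.98, SE 0.42, adjusted p = 0.00698). Fgfr2, a receptor, had 24.5 and 18.8 against 7.99, 8.86 and 9.52 CPM (-1.31, SE 0.28, adjusted p = 0.00765). The groups were apart for each gene, as for 38.9% of all tested genes, and for Fgf8 the naming rule required it. Without ERF wild type replicate 1, Fgf8 had about the same change with a larger p (-2.02, adjusted p = 0.057), and Fgfr2 had -1.07 (adjusted p = 0.142). Fgf5, the marker of the formative epiblast, had 30.7 and 41.0 against 21.2, 12.5 and 16.8 CPM, apart but not called (-1.09, adjusted p = 0.192).

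General pluripotency genes lay lower by small amounts. Of 10 tested, 0 were called, all 10 lay below 0 with a median of -0.21, and 2 had an adjusted p under 0.05. Their sum was 2957 and 3114 CPM in ERF wild type against 2526 to 2549 CPM in ERF knockout libraries. Pou5f1, the central factor, had 367 and 399 against 326, 361 and 342 CPM (-0.16, adjusted p = 0.277), and Trim28, a corepressor, had 907 and 957 against 717, 738 and 669 CPM (-0.40, adjusted p = 0.0343). Of 20 naive genes, 0 were called higher and 1 lower (over all genes, 1.58% and 0.78%), and the median of -0.22 turned to 0.098 without ERF wild type replicate 1. Gbx2, a homeobox gene, had 32.3 and 28.5 against 15.8, 11.6 and 15.2 CPM (-1.10, adjusted p = 0.00658), a call lost without ERF wild type replicate 1 (-0.98, adjusted p = 0.109) or ERF knockout replicate 2 (-0.96, adjusted p = 0.0439). Of 20 formative and primed genes, 0 were called higher and 3 lower (over all genes, 0.78% lower), 16 lay below 0 and the median was -0.51. Their sum was 1822 and 1974 CPM against 1419 to 1468 CPM. Foxd3, a forkhead factor of that stage, had 7.38 and 7.67 against 2.57, 2.65 and 2.79 CPM (-1.49, SE 0.21, adjusted p = 0.000214), the tightest of these genes and called in all 5 fits that left out 1 library. Lef1, a Wnt-responsive factor, had 107 and 79.8 against 33.4, 12.5 and 34.2 CPM (-1.81, SE 0.46, adjusted p = 0.022), a call lost without ERF wild type replicate 1 (adjusted p = 0.194) or ERF knockout replicate 2 (adjusted p = 0.087). The third was Fgf8. Otx2 (-0.39, adjusted p = 0.201) and Pou3f1 (-0.85, adjusted p = 0.141), drivers of the formative state, were not called.

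Of 11 DNA methylation genes 0 were called, but 10 of 11 lay below 0, with a median of -0.40. Dnmt3b, a de novo methyltransferase, had 437 and 463 against 308, 281 and 325 CPM (-0.56, adjusted p = 0.271), and Tet1, a demethylating enzyme, had 637 and 533 against 435, 496 and 571 CPM (-0.23, adjusted p = 0.328). Uhrf1, which guides maintenance methylation, had 331 and 289 against 204, 228 and 202 CPM (-0.55, adjusted p = 0.000922), and Dnmt1, the maintenance enzyme, had 264 and 239 against 194, 185 and 192 CPM (-0.40, adjusted p = 0.000763). The last pair differed by less than 2-fold and were therefore not called.

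Of the other signalling lists of this stage, Nodal and Activin, BMP and Id, and LIF and STAT3 had no calls, and Wnt had calls of lower genes. Of 17 Nodal and Activin genes 0 were called; Lefty1, the Nodal antagonist, had 476 and 486 against 438, 367 and 344 CPM (-0.33, adjusted p = 0.144) and Skil had -0.31 (adjusted p = 0.208). Of 17 BMP and Id genes 0 were called, with the receptor genes Bmpr1a at -0.18 (adjusted p = 0.0965) and Bmpr2 at -0.10 (adjusted p = 0.613). Of 10 LIF and STAT3 genes 0 were called, with Jak1 at -0.02 (adjusted p = 0.938) and Pim1 at -0.29 (adjusted p = 0.201). Of 18 Wnt and beta-catenin genes 2 were called lower (over all genes, 0.78%), the median was -0.27 and the sum was 521 and 518 CPM in ERF wild type against 370 to 395 CPM in ERF knockout libraries. Neither was called without ERF wild type replicate 1, where the median was -0.11, and without replicate 2 Dkk1, a secreted Wnt inhibitor, was called lower as well (-1.44, adjusted p = 0.011). The 2 were Lef1 and Cdx1, a caudal homeobox gene at 1.69 and 0.663 against 0.245, 0.695 and 0.279 CPM (-1.60, adjusted p = 0.0131). The Cdx1 libraries overlapped, and the call was lost without ERF wild type replicate 1 (-0.69, adjusted p = 0.558) and without ERF knockout replicates 1 or 3 (adjusted p = 0.0588 and 0.0506).

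Of 14 mesoderm and definitive endoderm genes, 1 was called higher and 3 lower (over all genes, 1.58% and 0.78%), with a median of -0.94. The median was -0.38 without ERF wild type replicate 1, with 0 called higher and 2 lower, Eomes and Hand1. Summed, these genes held 53.6 and 48.2 CPM in ERF wild type and 28.5, 27.9 and 30.2 CPM in ERF knockout libraries. Hand1, a factor of extraembryonic and lateral mesoderm, had 6.44 and 8.10 CPM in ERF wild type and 1.75, 1.65 and 2.39 CPM in ERF knockout libraries (-1.90, SE 0.36, adjusted p = 0.00229). Eomes, a T-box factor of the streak, had 14.4 and 18.2 against 8.11, 6.65 and 8.57 CPM (-1.06, SE 0.19, adjusted p = 0.0015), and Lhx1, a LIM homeobox gene, had 11.7 and 7.15 against 2.98, 2.82 and 3.63 CPM (-1.58, adjusted p = 0.00844). The groups were apart for all 3, as for 38.9% of all tested genes, and for Hand1 the naming rule required it. Hand1 was called in all 5 fits that left out 1 library. Eomes dropped under 2-fold without ERF wild type replicate 2 (-0.87) or ERF knockout replicate 2 (-0.95), and Lhx1 lost its call without ERF wild type replicate 1 (-1.15, adjusted p = 0.201). The rise was Mesp2, a segmentation factor, at 0.72 and 1.33 against 2.61, 2.61 and 1.75 CPM (1.2, adjusted p = 0.049), which was lost in 3 of those 5 fits, with a lowest value of 0.83 without ERF wild type replicate 1.

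The trophoblast list, which shares Hand1 and Eomes, had 1 of 15 called higher and 3 lower (over all genes, 1.58% and 0.78%), a median of -0.02 (-0.22 without ERF wild type replicate 1 and 0.21 without replicate 2) and sums of 64.9 and 82.1 CPM in ERF wild type against 73.3, 81.5 and 95.1 CPM in ERF knockout libraries. The 5 trophoblast cell markers, Hand1 and Gata3 among them, summed to 10.7 and 12.2 CPM in ERF wild type and to 5.30 to 6.34 CPM in ERF knockout libraries, while the keratin genes Krt8 (1.19, adjusted p = 0.0993), Krt18 (0.87, adjusted p = 0.265) and Krt7 (0.65, adjusted p = 0.192) had positive values that were not called. Gata3, a trophoblast factor, had 1.37 and 1.89 against 0.448, 0.652 and 0.797 CPM (-1.34, SE 0.28, adjusted p = 0.00497), called in all 5 fits that left out 1 library but not with effective length offsets (-0.69, adjusted p = 0.344). Krt19, a simple epithelial keratin, had 0.899 and 1.28 against 2.81, 3.39 and 4.62 CPM (1.74, adjusted p = 0.00318), a call lost without ERF wild type replicate 1 (1.52, adjusted p = 0.0847). Of 15 extraembryonic endoderm genes, 0 were called higher and 1 lower (over all genes, 1.58% and 0.78%), but 9 lay above 0 and the median was 0.50. In this list 2, Sparc (0.73) and Lamc1 (0.50), were higher at an adjusted p under 0.05 (over all genes, 891 of 20372). The list summed to 1782 and 1377 CPM in ERF wild type against 1841, 2043 and 2413 CPM in ERF knockout libraries, and its median was 0.03 without ERF wild type replicate 2. Lama1, a laminin chain of basement membrane, had 122 and 74.4 against 180, 179 and 280 CPM (1.11, adjusted p = 0.104), apart but not called. Cubn, an endocytic receptor and the call in that list, had 340 and 157 against 95, 76.6 and 133 CPM (-1.29, adjusted p = 0.0203), and the call was lost without ERF wild type replicate 1 (-0.60, adjusted p = 0.451) or ERF knockout replicates 1 (adjusted p = 0.0641) or 2 (adjusted p = 0.0958). Of 12 early neural genes, 1 was called lower (over all genes, 0.78%), the neuronal tubulin gene Tubb3 at 13 and 10.5 against 6.20, 4.30 and 7.01 CPM (-1.01, adjusted p = 0.00617). Tubb3 lies on chromosome 8, and its call was lost without ERF wild type replicate 1 (-0.81, adjusted p = 0.145) or ERF knockout replicate 2 (-0.82). Neurod1, a neuronal bHLH factor outside that list, rose from 1.91 and 1.52 to 7.62, 6.08 and 9.17 CPM (2.14, SE 0.31, adjusted p = 0.000196) and was called in all 5 of those fits.

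Epithelial architecture showed no calls with all 5 libraries. Of 19 polarity and lumen genes 0 were called; Tjp1, which encodes the tight junction protein ZO-1, had 238 and 250 against 229, 219 and 225 CPM (-0.12, adjusted p = 0.353), and Pard3 had -0.32 (adjusted p = 0.205). Of 16 cadherin and mesenchymal transition genes 0 were called (Vim was called lower without ERF wild type replicate 2), and Cdh1, E-cadherin, had 361 and 280 against 229, 223 and 252 CPM (-0.45, adjusted p = 0.26).

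**Figure D4:**
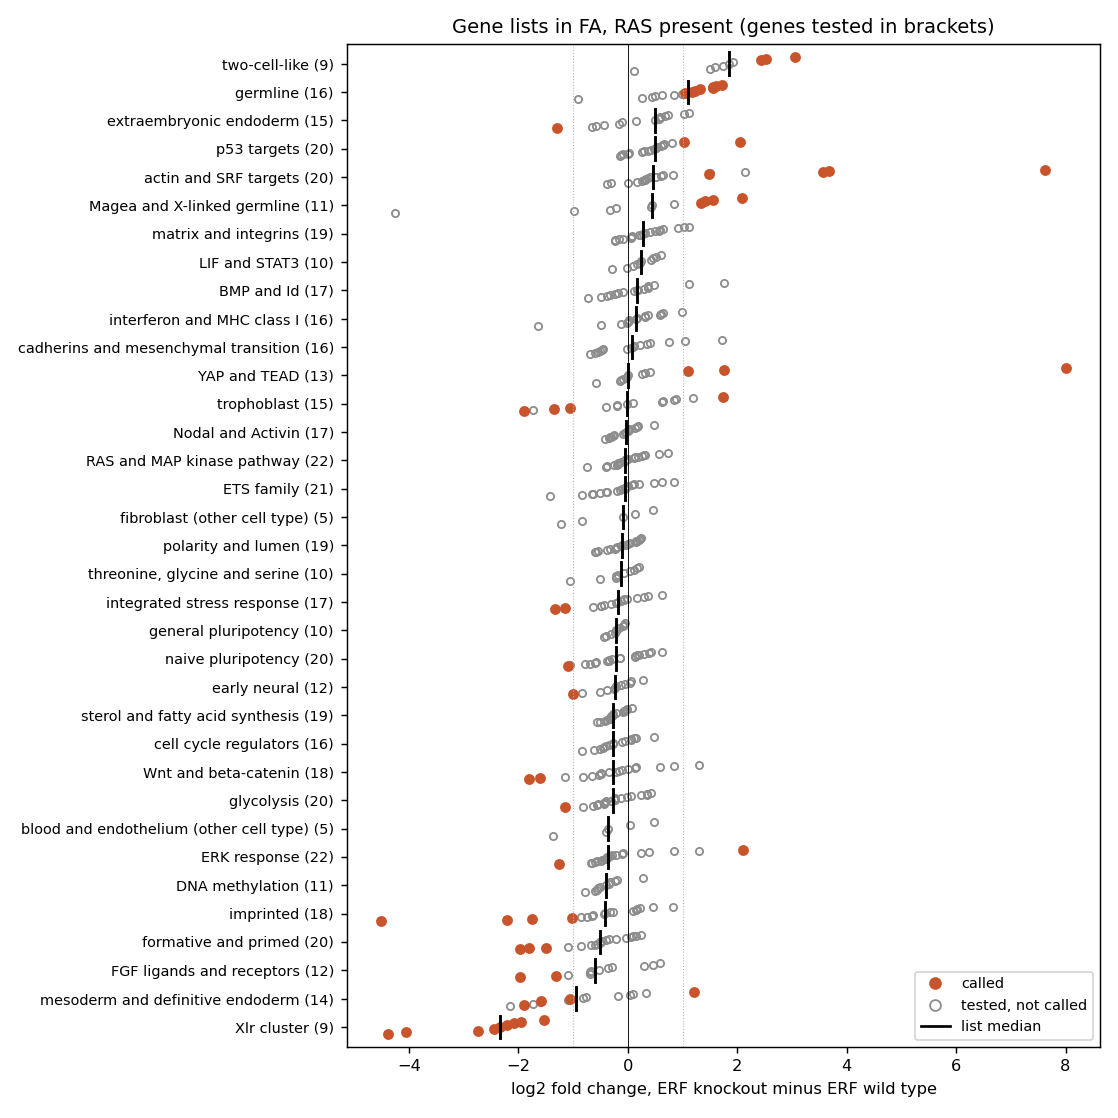
Log2 change (ERF knockout minus ERF wild type) of every tested gene in 35 lists, 1 row per list ordered by its median (black bar), with called genes filled in red. The Xlr genes lie wholly below 0 (median -2.34), the two-cell-like and germline lists have medians of 1.85 and 1.11, and the ETS family has no filled point.

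Of 20 p53 targets tested, 2 were called higher (over all genes, 1.58%) and 0 lower, 11 rose at an adjusted p under 0.05 (over all genes, 891 of 20372) and the median was 0.50. Both calls were lost without ERF wild type replicate 1, and the median was then 0.29. Fas, a death receptor gene, had 0.288 and 0.237 against 1.26, 0.782 and 1.28 CPM (2.04, SE 0.42, adjusted p = 0.00376). Plk2, a polo-like kinase gene, had 24.5 and 32.9 against 61.1, 55.3 and 57.7 CPM (1.02, SE 0.11, adjusted p = 7.47e-06). Without ERF wild type replicate 1 the values were 2.23 (adjusted p = 0.0514) for Fas and 0.85 (adjusted p = 0.000387) for Plk2, and Plk2 had 0.98 without ERF knockout replicate 1. Of 17 integrated stress response genes, 0 were called higher and 2 lower (over all genes, 0.78% lower), with a median of -0.18, but this direction rested on ERF wild type replicate 2. Without that library the median was 0.17, with 0 called lower and 2 higher, the transcription factor genes Ddit3 (1.52, adjusted p = 0.0059) and Atf5 (1.61, adjusted p = 0.00278). Chac1, a glutathione-degrading enzyme, had 45.2 and 80.9 against 29.3, 22.1 and 23.8 CPM (-1.33, adjusted p = 0.00472), and Slc7a11, the cystine transporter, had 5.14 and 6.25 against 2.57, 2.26 and 2.87 CPM (-1.15, adjusted p = 0.00795). Both calls were lost without ERF wild type replicate 2 (-0.84 and -0.99). Hspa5, the chaperone BiP of the endoplasmic reticulum, named after its values were seen, had 227 and 184 against 402, 434 and 434 CPM (1.04, SE 0.11), with 0.92 without ERF wild type replicate 2.

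Of 20 glycolysis genes, 1 was called lower (over all genes, 0.78%), with a median of -0.28 that was -0.13 without ERF wild type replicate 2. In this list 10 had a fall and 1 a rise at an adjusted p under 0.05 (over all genes, 1101 and 891 of 20372). Ldha, lactate dehydrogenase, had 414 and 359 against 196, 131 and 199 CPM (-1.14, SE 0.17, adjusted p = 0.000605), a change under 2-fold without ERF knockout replicate 2 (-0.96). The triosephosphate isomerase gene Tpi1 had 221 and 235 against 158, 124 and 157 CPM (-0.64, adjusted p = 0.0015). No gene was called among 19 of sterol and fatty acid synthesis (Fasn -0.32, Srebf2 0.07), 10 of threonine, glycine and serine use (Psat1 -0.08, Phgdh 0.18), 16 cell cycle regulators (Cdk4 -0.40, Ccnd3 -0.28) or 16 interferon and MHC class I genes (Bst2 0.32, Irf1 -0.49). When ERF wild type replicate 2 was left out, calls of higher genes in the interferon and MHC class I list included Tap1 (1.00) and Psmb9 (1.07), its median going from 0.15 to 0.49, and the cyclin gene Ccnd1 was called lower (-1.34). In the full comparison B2m, the light chain of MHC class I, had 4.57 and 4.55 against 7.62, 10.5 and 8.93 CPM (0.98, adjusted p = 0.0293), just under 2-fold.

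Other named falls were Sytl3, a vesicle trafficking gene (9.79 and 5.54 against 1.71, 2.22 and 1.87 CPM; -1.99, adjusted p = 1.94e-05), Tmem40 (4.43 and 6.49 against 1.75, 1.65 and 1.43 CPM; -1.75, adjusted p = 1.06e-05) and Ifitm1, an interferon-induced membrane protein (6.30 and 6.63 against 1.88, 2.35 and 2.11 CPM; -1.61, adjusted p = 0.000196). These 3 were called in all 5 fits that left out 1 library. Scn3a, a sodium channel gene, fell from 19.3 and 5.59 to 3.30, 2.35 and 2.71 CPM (-2.17, adjusted p = 0.000808), with most of the gap from ERF wild type replicate 1 (-0.97, adjusted p = 0.105 without it). Cphx1, a homeobox gene, fell from 7.34 and 4.4 to 0.285, 1.39 and 0.518 CPM (-3.02, adjusted p = 0.0269) and was called in 2 of those fits. The other named rises were Atp12a, a proton pump gene (2.12, adjusted p = 0.00829; 1.34, adjusted p = 0.135 without ERF wild type replicate 1) and Spesp1, a sperm protein gene (1.82, adjusted p = 0.0225; called in 1 of the 5 fits).

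The same ERF contrast in 2iL gave 1980 calls (9.72%) and in FA with RAS deleted 3385 calls (16.6%). Neither shares a library with the 480 calls described here. Of these 480, 203 were called in the same direction in 2iL (42.3% of the 480 and 10.3% of the 1980) and 14 in the opposite one. With RAS deleted, 138 were called in the same direction (28.7% of the 480 and 4.08% of the 3385) and 51 in the opposite one. In all 3 settings, 87 genes were called in the same direction, 47 higher and 40 lower. The Xlr genes were among them: all 9 were lower in each setting, with medians of -2.92 in 2iL and -3.55 with RAS deleted. Acta2 (7.61 and 7.76), Tagln (4.62 and 4.28), Ankrd1 (8.5 and 3.33), Timp2 (1.32 and 2.28), Peg3 (-1.12 and -1.5) and Foxd3 (-1.0 and -1.37) were called in the same direction in 2iL and with RAS deleted, in that order.

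The effect of ERF differed between FA and 2iL for 870 genes (4.27%; interaction term, 453 more positive in FA and 417 more negative), 96 of them among the 480. H19 was among them: its knockout change was -4.51 in FA and 2.10 (SE 1.03, not called) in 2iL, where both groups were near 0 with means of 0.284 and 1.25 CPM, a difference of -6.62 (SE 1.10, adjusted p = 0.0012). Spry4 was lower in FA (-1.25) and higher in 2iL (3.17; means 0.59 and 5.43 CPM), a difference of -4.43 (adjusted p = 4.6e-08). Tinagl1 rose in FA (3.82) and had -0.83 in 2iL, where its ERF wild type mean was 21.8 CPM. Mest had -1.74 in FA and -0.32 in 2iL (adjusted p of the difference 0.00086).

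The effect of ERF differed between RAS present and RAS deleted for 2794 genes (13.7%; 1282 more positive with RAS deleted and 1512 more negative), 232 of them among the 480 (48.3%). Fgf8 was lower with RAS present (-1.98) and higher with RAS deleted (2.12; means 7.77 and 34.1 CPM), a difference of 4.10 (SE 0.55, adjusted p = 2.1e-05). Hand1 (-1.90 against 2.03), Chac1 (-1.33 against 3.27), Slc7a11 (-1.15 against 2.04) and Cubn (-1.29 against 3.18) were called in opposite directions in the same way. Plk2 and Ctgf, higher with RAS present (1.02 and 1.11), had -0.85 and -0.87 with RAS deleted. Among formative genes, Fgf5 and Pou3f1, not called with RAS present (-1.09 and -0.85), had 2.05 and 2.41 with RAS deleted, and the differences of 3.14 and 3.26 were called (adjusted p = 0.0027 and 9.8e-05). Over the 20 naive genes the median was -0.22 in the cells that kept RAS (0.098 without ERF wild type replicate 1) and -2.53 in those labelled deleted, and Klf4 had 0.62 and -3.05. Both interactions were called for 63 of the 480 genes, 41 higher and 22 lower in FA with RAS present, among them Tinagl1, Ctgf, Plk2, Mest and Scn3a. Such a call does not mean that a change was confined to this setting. Gata3, also among the 63, had a smaller fall here (-1.34) than in 2iL (-4.98) and with RAS deleted (-2.43), and was called lower in each.

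**Figure D5:**
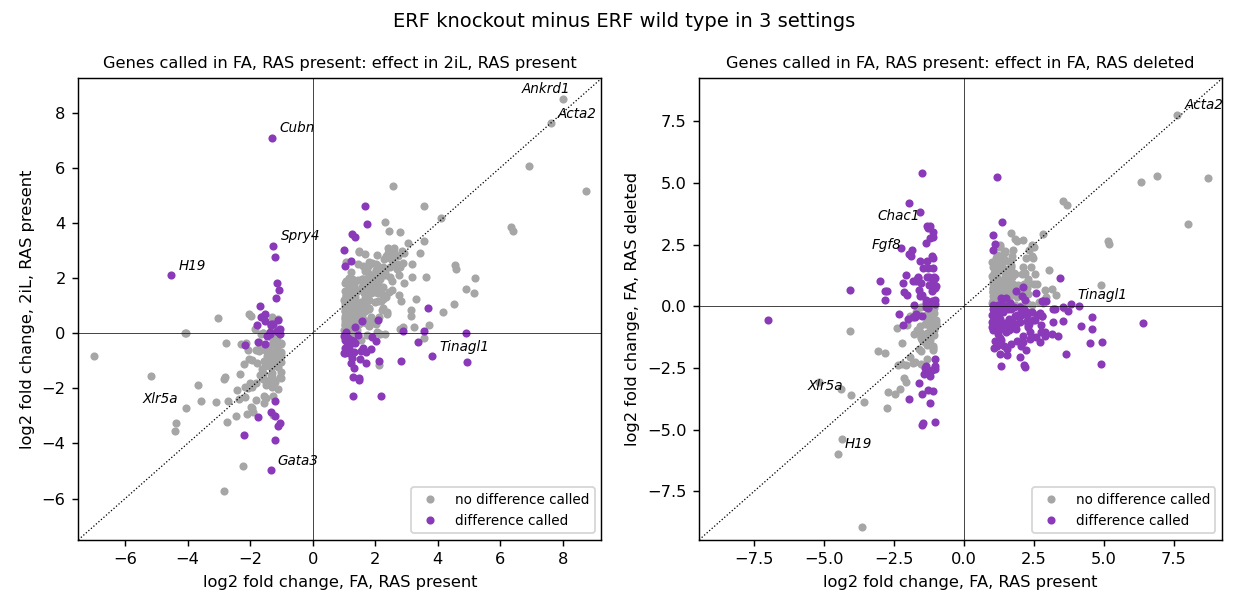
Log2 change (ERF knockout minus ERF wild type) of the 480 genes called in FA with RAS present (horizontal axes) against the same change in 2iL (left) and in FA with RAS deleted (right), with purple points where the difference between the settings was called. The purple points number 96 on the left and 232 on the right, and the dotted line marks equal change.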

How the data were processed

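RNA was depleted of ribosomal RNA, made into directional libraries and read as pairs, per the labels' protocols. The submitters' processing notes name bcl2fastq 2.20.0, fastp 0.20.0, Salmon and build mm10; whether strand was used in counting is not given in the sources used here. The authors deposited estimated counts per gene for each library, with an effective length per gene, and a table whose counts equal the rounded estimates (0 cells differ by more than 0.5). The deposited TPM values, per length and depth by the authors' quantifier, were not tested.

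Of 53607 gene rows, 20372 passed edgeR 4.0.16 filterByExpr and were tested in R 4.3.3 with TMM scaling and a robust quasi-likelihood fit of all 23 libraries, 1 coefficient per group. Standard errors are the absolute log2 change divided by the square root of F. With 3 and 2 libraries, precision is limited by their number. On simulated data for this comparison, 91 of 100 genes changed by 1.5 log2 and 99 of 100 changed by 3 were called over 19948 genes. These counts were drawn gene by gene from the fitted model itself, with changes planted only in genes above 1 CPM on average. They hold no difference shared by many genes, such as that of chromosome 8 in ERF wild type replicate 1. The recovery is thus not a measure of power in the real libraries. Alternatives used DESeq2 1.42.0, limma 3.58.1, other filters and scalings, and fits without 1 library.

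The genes named are the targets, the 15 largest called rises and 15 falls with separate ranges and at least 5 CPM in the higher group (passing over predicted genes, clones, pseudogenes and mitochondrial genes), up to 6 called members per list (otherwise its 2 most abundant), and 5 genes per direction of each interaction. Comparison, members and lists were chosen with earlier results of these data known. 1 gene, Gm26917, took 17.6 to 27.9% of counts. A further targeted gene, 1 gene chosen by the interaction rule and 1 list member are not reported here.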

Additional observations from a re-analysis of the deposited data

Results flagged for a closer look

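In groups of 2 or 3 libraries no single library can be tested as an outlier, so every result here is a difference in the ERF contrast between 2 settings, tested as an interaction in edgeR. Fitted differences of genes at or near 0 counts in a group depend on the prior count and are not bounds.

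Between FA and 2iL, with RAS present, the ERF contrast differed for 870 genes. Given as the contrast in FA minus that in 2iL on the log2 scale, and among genes with at least 5 CPM in some group that are not predicted genes, clones or pseudogenes, the most negative were Car4 (-9.85; 0 counts in the ERF wild type libraries in 2iL), Cubn (-8.39), H19 (-6.62), Trh (-5.93) and Ccdc194 (-4.77), and the most positive Spic (5.30), Ly6a (5.17), Tinagl1 (4.65), Dppa3 (4.37) and Fbln5 (4.32). Of these 10, Cubn, H19 and Tinagl1 were called in FA itself. Dppa3, a naive and germ cell gene, had ERF wild type and ERF knockout means of 28.9 and 1.55 CPM in 2iL, and 3.78 and 4.31 against 3.39 to 5.73 CPM in FA. Other named rises and falls with a called difference were Atp12a (3.11), Xlr3c (1.48), Tmem40 (1.30), Scn3a (-1.75) and Mest (-1.42).

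Between RAS present and RAS deleted, in FA, the contrast differed for 2794 genes. Given as the contrast with RAS deleted minus that with RAS present, and among genes of the same kind, the most negative were Ly6a (-9.81), Slc26a9 (-7.38), Aspa (-6.89), Aqp3 (-6.56) and Fat2 (-6.39), and among the most positive were Has2 (7.47), St6gal2 (6.36), Gbp2 (5.99) and Ccdc194 (5.96). Aqp3, a water channel gene, had ERF wild type and ERF knockout means of 98.9 and 1.19 CPM with RAS deleted, and 1.04 to 1.51 CPM in all 5 libraries with RAS present. Named rises with a called difference were Tinagl1 (-3.73), Atp12a (-3.33), Tcstv1 (-3.09), Pramef25 (-2.98), Usp17ld (-2.49), Usp26 (-2.30), Neurod1 (-2.28) and Spesp1 (-2.22). Named falls were Fgf8 (4.10), Cphx1 (4.06), Hand1 (3.94), Scn3a (3.12), Lef1 (2.84), Sytl3 (1.48), Mest (1.33) and Ifitm1 (-1.49).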

How the results depend on the processing

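The 480 calls in FA with RAS present became 1992 with no minimum fold, 145 at 4-fold or more, 881 with no filter on low counts, 266 with only the groups compared in the fit, 302 with only the FA libraries, and 124 to 749 when 1 library was left out. Without the 4 ERF wild type cultures with raised chromosome 8, an alternative added after seeing the data, 235 were called (139 higher, 96 lower); without chromosome 8 genes, 476. The lone ERF wild type library is then assumed to vary like the other groups. DESeq2 gave 503, limma-voom 515, RLE scaling 478 and effective length offsets 337. With no minimum fold and at 4-fold or more, the counts were 5668 and 727 in 2iL, 8725 and 1278 with RAS deleted, 1902 and 336 for the interaction with medium, and 5704 and 1193 for that with RAS. Leaving out 1 library, the interaction with medium had 577 to 1029 calls, the lowest without ERF wild type replicate 1 in FA. The change of Erf ran from -0.26 to 0.053 when 1 library was left out, reversed without ERF wild type replicate 1 (0.0532), and was 0.0528 without those 4 cultures. The groups share only 2 replicate numbers, and same-numbered libraries deviated together with r = 0.05 and 0.12 across genes, so the numbers were not taken to pair them; with the replicate block 697 genes were called over all libraries and 443 with only the groups compared.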
